A study of Homo sapiens with 6 samples.

Results

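Dense runs are stretches of intron in which sequencing clusters of protected RNA followed each other almost without a break. Within each of the 2 cluster lists analysed here, successive clusters on the same strand of the same gene were chained when the gap between them was under 50 nt, and chains of at least 5 clusters were kept as runs. By this rule the WT list held 1093 runs with 7186 of its 363377 single-gene clusters, and the F125A list held 520 runs with 3383 of its 184975. The runs were thus chosen by the measured positions of the clusters, so their number, density and span are given as a description, and what the rule did not use (the other list, place in the gene and chromosome, annotation and sequence) is described beside all clusters. The RNA came from FLAG-tagged Rbfox1 purified with the LASR complex from Flp-In 293 cells, a derivative of the human embryonic kidney line HEK293 with a defined integration site for transgenes. All cells belonged to Rbfox2 KO#7, a single clone with Rbfox2 knocked out. The WT list stands for 3 libraries from cells with FLAG-Rbfox1(WT), and the F125A list for 2 libraries from cells with FLAG-Rbfox1(F125A). A further library came from the knockout cells without a transgene and was not analysed here, so nothing was subtracted for it in this work. A cluster is a place on the transcribed strand covered by sequenced RNA, on hg38, and the lists give only its position, gene and strand. Read depth is unknown, each list is the only one of its group, and no test between WT and F125A was therefore possible. Intervals given with shares are exact (Clopper-Pearson) 95% binomial intervals that cover counting error only, and clusters or runs of the same gene are not independent.

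Rbfox proteins are splicing regulators whose RNA recognition motif binds the element GCAUG in introns, and F125A replaces a phenylalanine of that motif that contacts the RNA. LASR, the large assembly of splicing regulators, joins Rbfox to other RNA-binding proteins, among them hnRNP M, hnRNP H, hnRNP C, Matrin3, ILF2 and DDX5, on unspliced RNA. Several of these partners bind RNA in their own right, hnRNP H through runs of G and hnRNP C through runs of U.

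In each list 2 runs lay on annotated small RNA genes, and both were intronic miRNA clusters. The introns of SMC4, a condensin subunit, hold MIR15B and MIR16-2 on chromosome 3, and those of MCM7, a subunit of the replicative helicase, hold MIR106B, MIR93 and MIR25 on chromosome 7. Such miRNAs are cut out of the intron as hairpins, from which the 5p and 3p arms are released. The hairpins are printed 5′ to 3′, from RefSeq (GRCh38.p14), because the borders between clusters fell within them, and capitals mark the mature arms.
MIR15B: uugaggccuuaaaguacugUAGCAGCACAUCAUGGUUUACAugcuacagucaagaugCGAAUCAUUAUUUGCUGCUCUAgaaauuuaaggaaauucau
MIR16-2: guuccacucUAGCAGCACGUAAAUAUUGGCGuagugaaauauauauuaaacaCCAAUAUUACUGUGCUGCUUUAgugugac
MIR106B: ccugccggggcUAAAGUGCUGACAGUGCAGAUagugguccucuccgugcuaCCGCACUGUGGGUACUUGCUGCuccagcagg
MIR25: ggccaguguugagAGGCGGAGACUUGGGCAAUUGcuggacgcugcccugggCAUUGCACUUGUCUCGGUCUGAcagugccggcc

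MIR15B (chr3:160404588-160404685, plus strand) was covered over all of its 98 nt in both lists, by 2 clusters each. The border between them lay at the same place in the WT and the F125A list, after base 48 of the hairpin, in the loop between the 5p arm (bases 20 to 41) and the 3p arm (bases 58 to 79). MIR16-2 (chr3:160404745-160404825) was likewise covered over all 81 nt by 2 clusters, which met after base 35 in the WT list and after base 31, the last base of its 5p arm, in the F125A list. MIR106B (chr7:100093993-100094074, minus strand) was covered over all 82 nt, by 2 WT clusters that met after base 42, again between the arms, and by 1 F125A cluster of 154 nt that took in both arms. Whole 5p and 3p arms of these 3 hairpins were therefore covered in both lists. MIR25 (chr7:100093560-100093643) was covered in part: the runs reached 14 of its 84 nt in the WT list and 41 in the F125A list. Of its arms, the F125A run covered the 5p arm (21 of 21 nt), the WT run 1 nt of it, and neither run any of the 3p arm.

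The mature sequences of these hairpins are printed with the seed, bases 2 to 8, in capitals, to show which of them share a seed.
hsa-miR-15b-5p: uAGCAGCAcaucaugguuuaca
hsa-miR-16-5p: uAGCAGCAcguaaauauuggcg
hsa-miR-106b-5p: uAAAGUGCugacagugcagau
hsa-miR-25-5p: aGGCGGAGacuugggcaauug
hsa-miR-15b-3p: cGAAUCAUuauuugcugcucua
hsa-miR-16-2-3p: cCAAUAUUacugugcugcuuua
hsa-miR-106b-3p: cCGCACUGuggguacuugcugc
hsa-miR-25-3p: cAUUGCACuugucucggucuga
The seed AGCAGCA was shared by hsa-miR-15b-5p and hsa-miR-16-5p, which both lie in the SMC4 run. Among the printed arms, the other 6 each had a seed of their own. The arms of MIR93 were not compared, because its sequence was not used here, so a seed shared with MIR93 in MCM7 would not show.

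The SMC4 run had 6 clusters in each list, over 452 nt in the WT list (chr3:160404510-160404961) and 442 nt in the F125A list (chr3:160404527-160404968). It began before MIR15B and ended past MIR16-2, with 1 cluster on either side of the hairpins that lay on neither. The MCM7 run had 6 WT clusters over 468 nt (chr7:100093630-100094097) and 7 F125A clusters over 582 nt (chr7:100093524-100094105). Both MCM7 runs also covered the whole of MIR93 (chr7:100093768-100093847, minus strand) with touching clusters. The border inside it lay at the same place in both lists, between chr7:100093778 and chr7:100093777. That is close to the 3′ end of this hairpin and not near its middle. The arms of MIR93 were not placed here. No snoRNA, snRNA, tRNA or rRNA gene lay under a run in either list. Of the 1562 hairpins in the RefSeq table, 72 held a WT and 79 an F125A cluster on their strand, and outside the 2 runs the largest chain on a hairpin had 4 WT or 3 F125A clusters. Runs on miRNAs were 0.183% of WT runs and 0.385% of F125A runs. By cluster, 7 of 7186 WT and 7 of 3383 F125A clusters in runs lay on a hairpin of the table on the same strand, beside 0.0292% of all WT and 0.0605% of all F125A clusters.

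**Figure D1:**
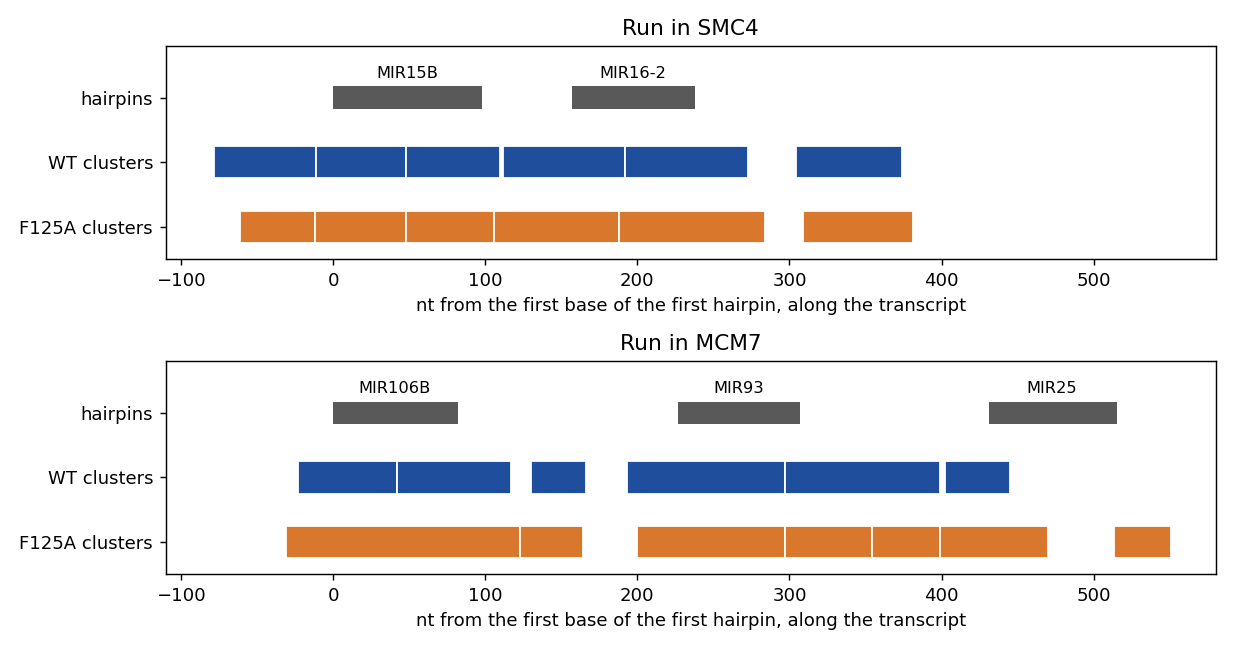
Clusters of the WT list (blue) and the F125A list (orange) that form the runs in SMC4 (top) and MCM7 (bottom), with annotated miRNA hairpins (grey); the x axis is distance in nt from the first base of the first hairpin, along the transcript, and white lines are borders between touching clusters. The border inside MIR15B in SMC4 lies at the same base in both lists, as does that inside MIR93 in MCM7. In MCM7 the F125A run reaches 582 nt and further into MIR25 than the WT run of 468 nt.

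A second kind of annotated place was the stretch before a start site. The RefSeq promoter table gives the 250 bases upstream of each annotated start, and because many genes have several starts such a window can lie in an intron of a longer transcript. A run lay on such a window in 19 of 1093 WT runs (1.74%, interval 1.05 to 2.70%) and in 18 of 520 F125A runs (3.46%, 2.06 to 5.42%). Counted by cluster, 0.849% of WT and 1.92% of F125A clusters in runs touched a window, beside 0.222% of all WT and 0.378% of all F125A clusters. Runs of both lists met over 17 windows of 14 genes. The windows of 3 such genes with most clusters in both runs together are printed on the gene's strand, from RefSeq (GRCh38.p14), with the bases that lie in the runs of both lists in capitals.
TMEM91 (chr19:41377014-41377263, plus strand): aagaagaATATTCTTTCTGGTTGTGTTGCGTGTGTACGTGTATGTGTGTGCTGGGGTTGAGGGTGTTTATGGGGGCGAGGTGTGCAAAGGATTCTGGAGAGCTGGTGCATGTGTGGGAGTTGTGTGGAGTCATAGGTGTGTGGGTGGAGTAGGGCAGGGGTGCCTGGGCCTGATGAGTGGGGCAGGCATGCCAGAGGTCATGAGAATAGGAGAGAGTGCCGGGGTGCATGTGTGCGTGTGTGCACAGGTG
BRD2 (chr6:32970680-32970929, plus strand): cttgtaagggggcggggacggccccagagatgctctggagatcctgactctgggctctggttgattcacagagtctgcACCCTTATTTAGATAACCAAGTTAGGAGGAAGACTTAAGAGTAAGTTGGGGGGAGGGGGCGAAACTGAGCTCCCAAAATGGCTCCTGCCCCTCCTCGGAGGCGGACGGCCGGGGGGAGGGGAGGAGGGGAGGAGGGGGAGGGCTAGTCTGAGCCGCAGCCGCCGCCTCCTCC
DEDD (chr1:161132447-161132696, minus strand): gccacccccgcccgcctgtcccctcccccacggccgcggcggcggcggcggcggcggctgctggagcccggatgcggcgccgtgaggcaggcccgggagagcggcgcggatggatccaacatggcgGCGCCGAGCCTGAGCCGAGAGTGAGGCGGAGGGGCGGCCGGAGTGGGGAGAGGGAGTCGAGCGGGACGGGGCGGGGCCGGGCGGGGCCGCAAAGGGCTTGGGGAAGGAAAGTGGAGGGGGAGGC

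The TMEM91 window, in a transmembrane protein gene, lay in runs of 10 WT clusters (chr19:41377021-41377720) and 8 F125A clusters (chr19:41376994-41377655). On the transcribed strand it held GCATG 3 times, 2 of them within TGCATG, and GTGTG 8 times, counting matches that do not overlap. The BRD2 window, in the gene of a bromodomain protein that binds acetylated histones, lay in runs of 10 WT and 9 F125A clusters and held no GCATG, while GGGGG occurred 5 times, counted the same way. The DEDD window, in the gene of a death effector domain protein, lay in runs of the same sizes, had a GC content of 79.2%, and held no GCATG and 1 GGGGG. A later BRD2 window (chr6:32971345-32971594), with 196 nt in the same WT run and 115 nt in the same F125A run, differed. It held 1 GCATG, 1 TTTTT and no GGGGG, but the GCATG lay past the end of the F125A run and the TTTTT past both. Motif counts and GC content are for whole windows, also where the runs covered only a part of them. Of the 17 windows under runs of both lists, 4 (23.5%) held GCATG on the transcribed strand, and they were the only ones among the 32 windows under a run of either list (12.5%), beside 18.4% of the 729 windows under any cluster and 16.5% of all 34943 windows. TGCATG, which contains GCATG, was in 1 of 17 (5.88%), beside 4.46% of all windows. GGGGG was in 16 of 17 (94.1%), and in 29 of 32 (90.6%), beside 66.3% of windows under any cluster and 35.7% of all windows. TTTTT was in 1 of 17 and 2 of 32, beside 24.3% under any cluster and 22.7% of all windows. GTGTG was in 4 of 17 (23.5%) and 12 of 32 (37.5%), beside 34.6% under any cluster and 20.7% of all windows. On either strand GCATG was in 23.5% of the 17 windows and in 25.1% of all windows. The median GC content was 74.0% in the 17 windows, 63.2% under any cluster and 58.0% in all windows, and the part of GC content in the motif shares was not tested. Most runs lie outside these windows and their sequence was not used here. In the motif shares each window was counted, although windows of the same gene can overlap and share bases. The 17 windows came from 14 genes and the 32 from 23 genes. The 4 windows with GCATG lay in TMEM91, BRD2 and ZNF580. Those of ZNF580 (chr19:55641802-55642051 and chr19:55641847-55642096) overlap and hold the same site, which was thus counted for both.

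Runs were made of clusters laid end to end. In the WT list the median run had 6 clusters (quartiles 5 and 7, largest 22) and spanned 451 nt (quartiles 370 and 581, range 221 to 1892), and in the F125A list 6 clusters (quartiles 5 and 7, largest 21) and 485 nt (389 and 622, range 219 to 1695). The clusters covered a median of 93.0% of the span of WT runs and 94.7% of that of F125A runs. No 2 clusters of a list overlapped, and 3357 of 6093 neighbouring pairs in WT runs (55.1%) and 1712 of 2863 in F125A runs (59.8%) touched without a base between them. Among all neighbouring pairs of a gene under 50 nt apart, 41.8% of WT and 45.9% of F125A pairs touched. The sources used here do not say how the caller set borders between touching clusters, so a long protected stretch divided by the caller and separate neighbouring stretches cannot be told apart. Clusters in runs were also longer, with a median of 68 nt (WT) and 72 nt (F125A), beside 60 and 64 nt over all clusters. Together the runs spanned 568 kb in the WT list and 283 kb in the F125A list.

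The threshold fell on a smooth slope. Just outside it were 1465 WT and 619 F125A chains of 4 clusters, with a median span of 299 and 322 nt, and just inside it 515 WT and 238 F125A chains of 5, with 377 and 409 nt. Gaps just under and just over the limit were about as frequent, with 4331 WT gaps of 40 to 49 nt and 4122 of 50 to 59 nt, and 1637 and 1553 in the F125A list. Runs of 10 or more clusters numbered 118 in the WT list and 45 in the F125A list, and 49 WT and 33 F125A runs were longer than 1 kb. There were 2.10 WT runs for each F125A run, close to the 1.96 WT clusters for each F125A cluster, so the share of clusters in runs was 1.98% in the WT list and 1.83% in the F125A list. The lists share a stretch of 5433 rows that is word for word the same, and no run held a cluster of it.

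**Figure D2:**
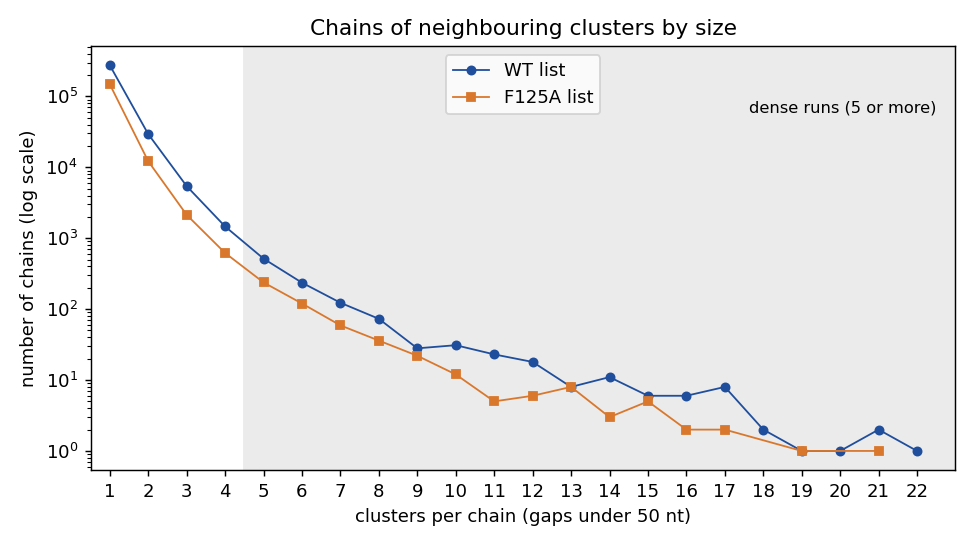
Number of chains (y axis, log scale) by number of clusters in the chain (x axis), for the WT list (blue circles) and the F125A list (orange squares); shading marks the dense runs. Chains of 4 number 1465 and 619, chains of 5 number 515 and 238, and the largest have 22 and 21 clusters.

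Places with a run in either list mostly held clusters in the other list as well. Of the WT runs, 1021 of 1093 (93.4%, interval 91.8 to 94.8%) overlapped an F125A cluster on the same strand, and of the F125A runs 518 of 520 (99.6%, 98.6 to 99.95%) overlapped a WT cluster. A whole run offers several clusters for such an overlap, so the comparison with the rest is by cluster: 74.2% of WT clusters in runs overlapped an F125A cluster, beside 44.7% of all WT clusters, and 94.0% of F125A clusters in runs overlapped a WT cluster, beside 85.3%. In the WT list the share was higher the more clusters the chain had, from 40.6% of clusters on their own through 53.4% in chains of 2, 61.1% in chains of 3 and 66.9% in chains of 4, to 71.8% in runs of 5 to 7 and 79.3% in runs of 8 or more. In the F125A list it went from 84.1% of clusters on their own to 93.5% and 94.9% in the same 2 classes of run. Starts within 2 nt of a start in the other list were found for 27.0% of WT clusters in runs, beside 17.3% of all, and for 40.4% of F125A clusters in runs, beside 33.9%. Taken only over clusters with an overlap, the share with such a start was 36.4% in WT runs and 38.6% in the whole WT list, and 43.0% and 39.7% in the F125A list. Clusters in runs were longer than the rest, as given above, and the part of length in these shares was not tested.

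**Figure D3:**
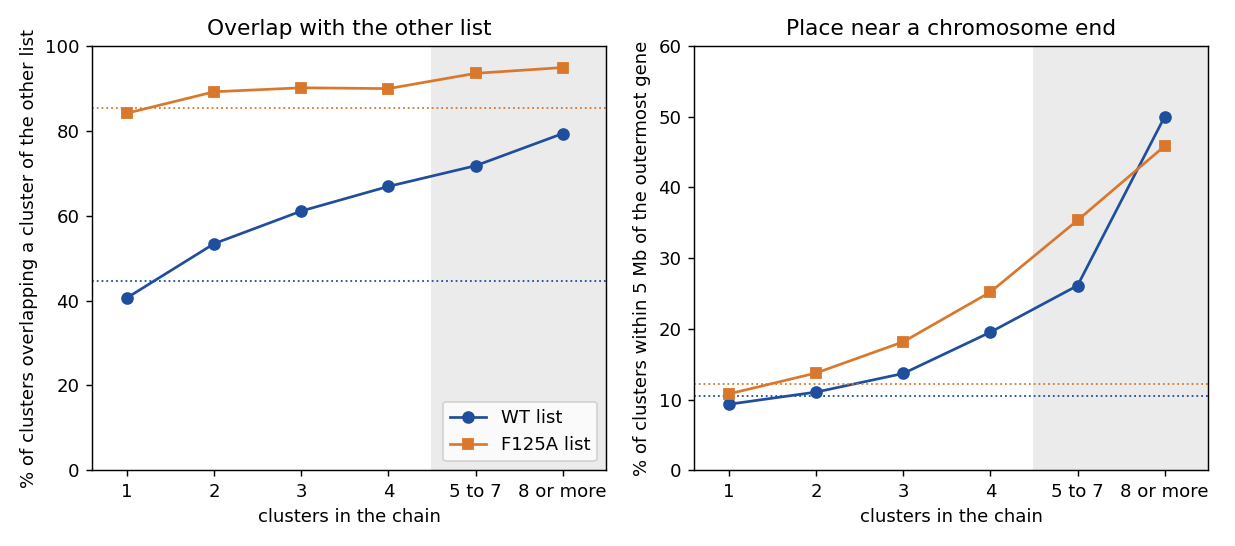
Share of clusters, by size of the chain they belong to, that overlapped a cluster of the other list (left, y axis in %) and that lay within 5 Mb of the outermost annotated gene of the chromosome (right, y axis in %), for the WT list (blue circles) and the F125A list (orange squares); dotted lines are all clusters and shading marks dense runs. The left curves end at 79.3% and 94.9% and the right curves at 50% and 45.8%, all above their dotted lines.

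A run in both lists was less common. Of WT runs, 360 (32.9%, interval 30.2 to 35.8%) overlapped an F125A run, and of F125A runs 358 (68.8%, 64.7 to 72.8%) overlapped a WT run. By size, 61.2% of WT runs of 8 or more clusters and 25.9% of those of 5 to 7 met an F125A run, and 87.4% and 64.3% of F125A runs met a WT run. Joined across lists, the runs made 1249 places: 354 with a run in both lists, 733 with a run in the WT list alone and 162 with a run in the F125A list alone. At the 733 places the median was 5 WT and 3 F125A clusters, 351 of them had 3 or 4 F125A clusters, and 72 had none. At the 162 places the median was 5 F125A and 4 WT clusters, 95 of them had 3 or 4 WT clusters, and 2 had none. Most of these places thus had clusters of the other list, below the 5 that the rule asks for or too far apart to be chained.

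At the 354 places with a run in both lists the cluster numbers were close, 2841 WT against 2606 F125A, or 1.09 to 1, although the WT list as a whole held 1.96 clusters for each F125A cluster. More WT clusters were found at 158 of them, more F125A clusters at 59, and equal numbers at 137. Both lists had to reach 5 clusters at these places, so this ratio is in part set by the rule.

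**Figure D4:**
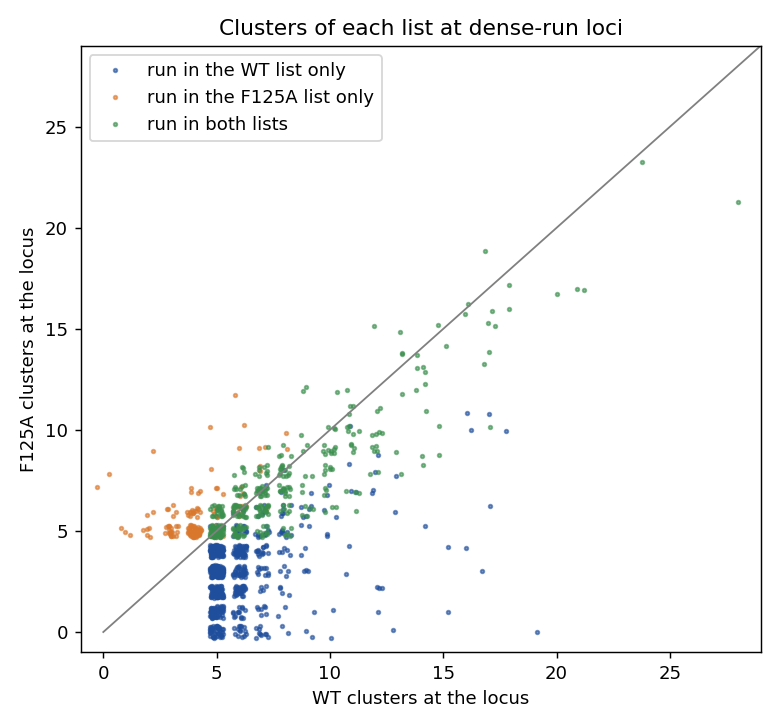
WT clusters (x axis) against F125A clusters (y axis) at each of the 1249 places with a dense run, with a run in both lists (green), in the WT list alone (blue) or in the F125A list alone (orange); points are spread by up to 0.3 in each direction so that equal values can be seen, and the line marks equal numbers. The 354 green points lie near the line, and the 72 blue points at 0 on the y axis have no F125A cluster.

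The largest WT run lay in MLXIP, which encodes the glucose-responsive transcription factor MondoA, with 22 clusters over 1865 nt (chr12:122093453-122095317), of which 99.5% was covered. The F125A list had 17 clusters there and covered 90.1% of it. GPR173, an orphan G protein-coupled receptor gene on the X chromosome, held WT runs of 21 and 18 clusters (chrX:53054527-53056377 and chrX:53051309-53052929), and the F125A list had 17 and 10 clusters there. EVI5L, a gene of the Rab GTPase-activating family, had 21 WT and 17 F125A clusters (chr19:7841993-7843837), and PRDM15, a zinc finger gene, 20 and 17 (chr21:41828846-41830737). Further large WT runs lay in COL18A1 (19 clusters), TBL1X (18), TUBGCP6 (17) and DIP2C (17). TBL1X encodes a part of transcriptional corepressor complexes, and TUBGCP6 a part of the gamma-tubulin ring. Apart from the COL18A1 run, each of these runs had from 10 to 17 F125A clusters within it.

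In the F125A list the largest run lay in STRBP, a gene for a double-stranded RNA-binding protein, with 21 clusters over 1545 nt (chr9:123266611-123268155), starting 0.431 kb from the annotated gene start. The WT list had 22 clusters there, in 2 runs. MXI1, which encodes a MAX-binding repressor, followed with 19 F125A and 17 WT clusters (chr10:110226392-110227615). GPR173 (17 F125A and 20 WT clusters), ERC1 (17 and 18), DLGAP2 (16 and 17), ACTN4 (16 and 16) and BCL2 (15 and 15) came next. DIP2C held 2 F125A runs of 15 clusters each, with 16 and 17 WT clusters, and IRS4, an insulin receptor substrate gene, a run of 15 with 12 WT clusters. The ACTN4 run, in the gene of an actin cross-linking protein, lay 0.261 kb from the gene start. All 10 F125A runs overlapped a WT run, and in 6 of them the WT list had more clusters than the F125A list.

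Of the 72 WT runs that met no F125A cluster, 41 had just 5 clusters, and they lay in 64 genes. The largest lay in COL18A1, the gene of collagen XVIII, with 19 clusters over 1192 nt (chr21:45452281-45453472), of which 97.1% was covered. MAD1L1, a spindle checkpoint gene, held 2 such runs of 13 and 9 clusters close to each other (chr7:1887861-1888809 and chr7:1887246-1887802). FBRSL1 followed with 10 clusters (chr12:132518184-132519012) and ADAMTS17, a metalloprotease gene, with 9 (chr15:100225396-100226209). COL18A1 and MAD1L1 were not without F125A clusters as genes, with 64 and 115, and COL18A1 also held 3 F125A runs elsewhere. The 2 F125A runs that met no WT cluster lay in PPP6R2, a protein phosphatase 6 subunit gene (8 clusters, chr22:50347102-50347843), and in PTPRN2, a gene of secretory granules (7 clusters, chr7:157580495-157581200). Of the 72 WT runs, 33 lay within 5 Mb of the outermost gene of their chromosome, as did both F125A runs. A run that is missing from the other list was not shown to be lost with the other protein, since read depth is unknown.

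Density, in clusters per 100 nt of span, had a median of 1.29 in WT and 1.22 in F125A runs. DYNC2I1, a ciliary dynein gene, held the densest WT run, 7 clusters in 286 nt (2.45 per 100 nt), and the third densest F125A run, 8 clusters in 359 nt (2.23). MFSD10, a transporter gene that RefSeq now lists as SLC75A1, held 8 WT clusters in 339 nt (2.36) and 8 F125A clusters in 323 nt (2.48), the densest F125A run. Their 5′ ends lay 0.078 kb (WT) and 0.099 kb (F125A) from the gene start. CARS2 (2.39), TAF4 (2.28) and RABEP1 (2.26) held the other dense WT runs, with 2, 4 and 3 F125A clusters, and NFATC1 (2.28), ZNF787 (2.07) and PKM (2.05) the other dense F125A runs, with 2, 4 and 3 WT clusters. Thus 2 genes, DYNC2I1 and MFSD10, were among the 5 densest in both lists.

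Runs gathered near chromosome ends. Within 5 Mb of the outermost annotated gene of the chromosome lay 328 of 1093 WT runs (30.01%, interval 27.3 to 32.8%) and 190 of 520 F125A runs (36.5%, 32.4 to 40.8%). By cluster the shares were 33.9% in WT runs, beside 10.5% of all WT clusters, and 38.6% in F125A runs, beside 12.1% of all F125A clusters. With chain size the WT share went from 9.33% of clusters on their own through 19.5% in chains of 4 to 26.1% in runs of 5 to 7 and 50% in runs of 8 or more. The F125A share went from 10.8% through 25.2% to 35.3% and 45.8%. In genes over 100 kb, 31.6% of WT and 44.3% of F125A clusters in runs lay there, beside 8.11% and 9.26% of all clusters of such genes, and in genes under 30 kb 37.5% and 30.6%, beside 18.6% and 20.3%. Without genes that held 3 or more runs, the shares of runs were 24.3% in the WT list and 32.6% in the F125A list. Base composition and repeats of these regions were not used here, and their part was not tested.

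Chromosomes 19 and 21 stood apart from the others. On chromosome 19 runs held 7.18% of WT and 5.67% of F125A clusters, and on chromosome 21 they held 5.71% and 6.85%. Chromosome 19 held 128 WT runs (11.7% of them, with 3.30% of WT clusters) and 67 F125A runs (12.9%, with 4.29%). Chromosome 21 held 33 WT and 25 F125A runs. Over the other chromosomes apart from Y, which held no run, the share of clusters in runs ranged from 0.991% on chromosome 3 to 2.93% on chromosome 20 in the WT list, and from 0.623% on chromosome 3 to 3.70% on chromosome 18 in the F125A list. Chromosome 3, with the lowest share in both lists, had 42 WT and 12 F125A runs, that in SMC4 among them. Without chromosome 19 the shares of runs near chromosome ends were 30.8% (WT) and 37.5% (F125A), so that pattern did not rest on chromosome 19.

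**Figure D5:**
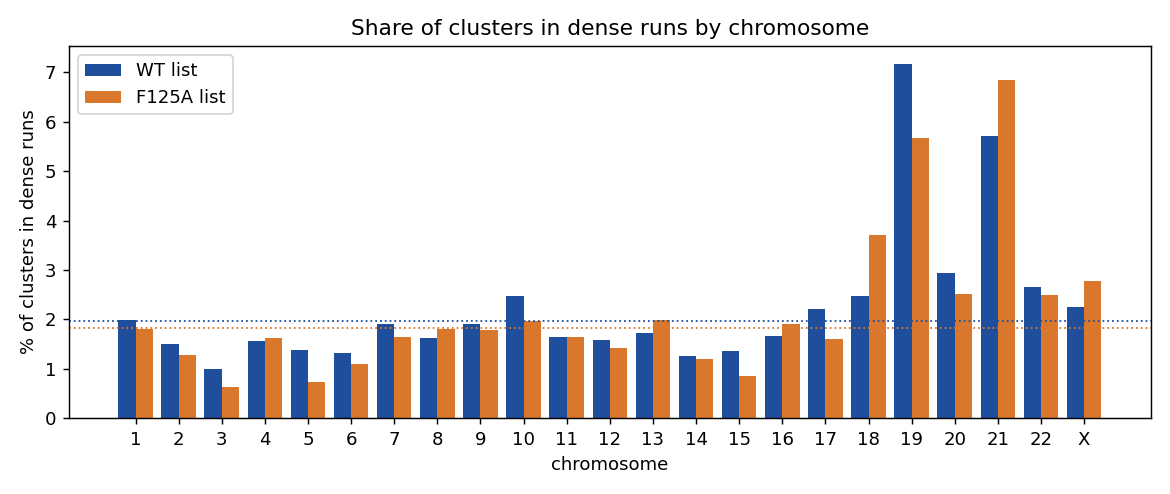
Share of each chromosome's clusters that belong to dense runs (y axis, %), by chromosome (x axis), for the WT list (blue bars) and the F125A list (orange bars); dotted lines are the lists as a whole, at 1.98% and 1.83%. Chromosome 19 (7.18% and 5.67%) and chromosome 21 (5.71% and 6.85%) rise above all others in both lists.

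Within genes, runs lay near the start more often than clusters did in general. A cluster within 1 kb of the annotated gene start was found in 69 WT runs (6.31%, interval 4.94 to 7.92%) and in 59 F125A runs (11.3%, 8.75 to 14.4%). By cluster the shares were 5.18% in WT runs, beside 2.01% of all WT clusters, and 8.93% in F125A runs, beside 3.46% of all F125A clusters. In genes over 100 kb the shares were 1.92% and 4.49% in runs, beside 0.603% and 1.13% of all clusters, so the pattern was also seen among long genes. Near the gene end the runs differed less from the rest. A cluster within 5 kb of it was found in 57 WT runs (5.22%, interval 3.97 to 6.70%) and in 44 F125A runs (8.46%, 6.22 to 11.2%). By cluster this made 4.79% in WT runs, beside 3.82% of all, and 7.74% in F125A runs, beside 5.26% of all. In genes of 30 to 100 kb and of over 100 kb the share near the end was lower in runs than over all clusters in both lists, at 2.56% beside 3.71% (WT) and 3.40% beside 4.06% (F125A) in the former. In genes under 30 kb it was 21.9% beside 23.7% (WT) and 28.0% beside 26.6% (F125A). In the WT list the share was thus lower in runs within each length class, though higher over all genes together. Runs lay in shorter genes than other clusters, with a median gene length of 97.4 kb for WT and 72.4 kb for F125A runs, beside 132 and 112 kb over all clusters. The share of clusters in runs was 3.34% (WT) and 3.09% (F125A) in genes under 30 kb and 1.62% and 1.49% in genes over 100 kb.

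Runs were spread over many genes. In the WT list 789 of the 11551 genes with a cluster held a run, or 6.83%, and in the F125A list 414 of 10660, or 3.88%. Of the 877 genes with a run in either list, 326 had a run in both lists, 463 in the WT list alone and 88 in the F125A list alone. A single run was the rule, in 601 WT and 349 F125A genes, and 57 and 23 genes held 3 or more. CDH4, the gene of R-cadherin on chromosome 20, held most WT runs, 14 with 91 of its 356 WT clusters, and 6 F125A runs with 46 of its 203. DIP2C on chromosome 10 held 11 WT runs with 91 of 417 clusters and 6 F125A runs with 53 of 255. In both genes between 20.8% and 25.6% of clusters were in runs, in either list. PRDM16, a zinc finger transcription factor gene, had 6 WT and 3 F125A runs, DOCK1, an activator of Rac, 5 and 3, and GAK, a kinase gene of clathrin uncoating, 5 and 2. HDAC4 and INPP5A had 5 WT runs and 1 F125A run each, COL18A1 had 5 and 3, and MAD1L1 had 5 and none.

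SLIT2, the gene of an axon guidance ligand, held 9 WT runs and no F125A run, although it had 476 F125A clusters beside 903 WT clusters. At the 9 places the WT list had from 5 to 7 clusters and the F125A list from 1 to 4, so each place had F125A clusters. All 9 runs lay closer to the start than to the end of the gene, beginning between 16986 and 141454 nt from its start, in a gene of 368657 nt. The places of its other WT clusters are not given here, so the runs cannot be set against them. Of the WT clusters of SLIT2, 5.65% were in runs, beside 1.98% over all genes and 1.62% in genes over 100 kb. Each of the 10 genes with most WT clusters had less than 6% of its WT clusters in runs, and SLIT2 had the highest share. AUTS2, with 1463 WT clusters, had 5 WT runs and no F125A run, PRKG1 with 932 had 5 and 1, ERBB4 with 913 had 2 and none, and PARD3 with 698 had none and 1.

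IRS4 and ZNF711 on the X chromosome went the other way. IRS4, a gene of 16.6 kb, held 6 F125A runs with 43 of its 74 F125A clusters (58.1%) and 2 WT runs with 12 of its 48 WT clusters (25%). At the 4 places with an F125A run alone the F125A list had from 5 to 7 clusters and the WT list from 3 to 5. ZNF711, a zinc finger gene, held 5 F125A runs with 26 of 131 clusters and 1 WT run with 8 of 100. Its 4 places with an F125A run alone had 5 or 6 F125A and 3 or 4 WT clusters. Among the genes with 4 F125A runs, ERC1, GPI, AGPAT3 and C7orf50 also held 4 WT runs, EIPR1 held 3, and PTPRN2 and AGAP1 held 2.

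In a few genes nearly all clusters belonged to a run. Where WT and F125A clusters added up to 20 or more in a gene, the highest share was that of KIF21B, a kinesin gene, with 12 of 14 WT and 10 of 11 F125A clusters in 1 run of each list, 88.0% in all. RAB8A, a small GTPase gene, had 10 of 13 and 7 of 8 (81.0%), KCP 9 of 13 and 9 of 10 (78.3%), and TMEM91 10 of 13 and 8 of 10 (78.3%). ARHGEF16 had 15 of 16 WT clusters in 1 run, while its 4 F125A clusters made none. C1QTNF1 had the same share over both lists, 75%, with 15 of 17 WT clusters in 1 run and 3 F125A clusters that made none.

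Each group of splicing factor genes examined held runs in the WT list, and all but the Rbfox family held runs in the F125A list too. The lists of genes were drawn up with earlier results of these data known, and each share of clusters is read beside 1.98% of WT and 1.83% of F125A clusters over all genes. Counts of genes with a run are read beside the 6.83% and 3.88% of all genes with a cluster. Genes with more clusters have more chances of a run. For the SR protein and TRA2, hnRNP and Rbfox-dependent lists, counts among genes with 20 or more clusters over both lists are therefore given too. These are read beside 13.3% and 7.06% of all genes with 20 or more clusters. Of the 14 SR protein and TRA2 genes with a cluster, which encode serine-arginine-rich activators of splicing, 6 held a WT run and 3 an F125A run, with 8.13% and 7.34% of their clusters in runs. Among the 11 with 20 or more clusters, 6 (54.5%) held a WT run and 3 (27.3%) an F125A run. SRSF11 had 2 runs in each list, with 10 of 60 WT and 11 of 61 F125A clusters, TRA2A 1 WT and 2 F125A runs (7 of 71 and 10 of 61), and SRSF6 1 in each (5 of 25 and 6 of 27). The SRSF6 runs lay at different places, the WT run 1457 nt and the F125A run 4157 nt from the gene start in a gene of 6348 nt. SRRM2 had 1 WT run, with 5 of 48 clusters.

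Of 16 hnRNP genes outside LASR, 5 held a WT and 3 an F125A run (5.14% and 4.28% of clusters). Among the 15 with 20 or more clusters, the same numbers made 33.3% and 20%. PCBP2, which encodes a poly(C)-binding protein, had 1 WT and 2 F125A runs, with 6 of 80 and 10 of 71 clusters. HNRNPA2B1 had a WT run of 10 of its 41 clusters, where the F125A list had 6 clusters and no run. HNRNPU had 1 run in each list, with 5 of 34 clusters in both, and HNRNPR an F125A run alone (6 of 43). Of the 7 LASR subunit genes with a cluster, HNRNPC held 1 run in each list, of 5 clusters among 146 WT and 103 F125A clusters. Together 2.29% of WT and 1.44% of F125A clusters of this list were in runs, near the shares over all genes.

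In the Rbfox family 6.26% of WT clusters (27 of 431) and none of 233 F125A clusters were in runs. The knocked-out gene itself, RBFOX2, had intronic clusters in both lists, and 11 of 407 WT clusters formed 2 runs, of 6 and 5 clusters, where the F125A list had 4 and 2. RBFOX3, a neuronal family member, had 16 of its 20 WT clusters in 2 runs, and its 9 F125A clusters formed no run. Of 26 genes whose splicing is known to depend on Rbfox, 4 held a WT and 2 an F125A run (1.20% and 1.00% of clusters). Among the 24 with 20 or more clusters, the same numbers made 16.7% and 8.33%. CTTN, the gene of cortactin, had a run of 8 clusters in each list, among 41 WT and 25 F125A clusters, ENAH 2 WT runs and 1 F125A run, and CAMTA1 and EPB41L2 1 WT run each. Other splicing regulators had 1.82% and 0.698% of clusters in runs. Among them TIAL1 held 3 WT runs and 1 F125A run (16 of 78 and 6 of 69 clusters), and CELF2 and TIA1 1 WT run each. A list of 25 ribosomal protein genes, which does not hold all of them, had 183 WT and 226 F125A clusters and no run in either list. Outside that list RPL27A held 1 WT run, of 5 of its 9 WT clusters, and RPL31 and RPS16 held 1 F125A run each, of 5 of their 8 and 9 F125A clusters. They are named after their values were seen. Of 16 marker genes of other tissues (liver, blood, skeletal muscle and neurons), which HEK293 cells are not known for, 7 had a cluster and RBFOX3 alone held runs.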

How the data were processed

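Nuclease-protected RNA was sequenced from 3 WT libraries, 2 F125A libraries and 1 control library, grouped by the labels' titles. Per the labels' protocols, primers carried 4-nt molecular identifiers and inserts of 20 to 80 nt were selected. The build hg38 and the tools cutadapt and STAR are named in the submitters' processing notes. Not given in the sources used here are tool versions, the caller of the clusters and its threshold, how the control was used and how libraries were combined. The lists deposited by the authors give, per the file headers, a position, gene and strand for each cluster, with no counts or scores.

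The members and gene lists were chosen with earlier results of these data known. Repeated rows were dropped, and rows naming several genes (3052 in each list) were left out of the chains. Those rows were kept in the other list when overlaps of clusters and runs with it were counted. Cluster numbers at places joined across lists were counted without them. Printed coordinates are 1-based, with the lists' starts taken as 0-based. Overlap needed 1 nt on the same strand. Gene places came from RefSeq (GRCh38.p14): of 11805 gene names, 11717 matched by symbol and 79 by synonym, and every run lay in a matched gene. Named were, per list, the 10 runs with most clusters, the 5 largest without a partner, the 5 densest and the 10 genes with most runs, then the 5 genes with the highest share in runs and up to 4 members of each gene list. The windows of BRD2 and DEDD, the places of IRS4 and ZNF711, and the genes AUTS2, PRKG1, ERBB4, PARD3, AGAP1 and C1QTNF1 were added after their values were seen. Values of some single genes are left out here. Chaining was tested on simulated positions. Python 3.11.15, pandas 2.3.3 and scipy 1.17.1 were used. The planned sequence content of whole runs was left out, because no genome was used here.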

Additional observations from a re-analysis of the deposited data

How the results depend on the processing

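The number of runs followed the rule. With a largest gap of 25 nt there were 693 WT runs, and 365 F125A runs, within 1.5 times the 520; with 100 nt there were 1980 and 824. Asking for 4 clusters gave 2558 and 1139 runs, and asking for 8 gave 219 and 103. Merging touching clusters first, a choice made after seeing the data, left 241 and 88 runs. The median span was 508 and 540 nt with gaps of up to 100 nt, and 578 and 613 nt after merging touching clusters. Runs with at least 50% of their span covered by the other list were 68.1% of WT and 94.2% of F125A runs, 0% and 0% overlapped a cluster of it on the other strand, and 96.8% of WT runs of 8 or more clusters overlapped an F125A cluster. Because clusters lie on the transcribed strand, an overlap on the other strand was possible only where genes overlap, so that check could show little. Runs within 2 kb of the gene start were 9.15% and 15.0%, and within 10 kb of the gene end 14.5% and 19.8%. By cluster this was 8.52% and 13.8% in runs beside 4.15% and 6.31% of all, and 13.8% and 18.9% beside 9.74% and 12.4%. Of genes where WT and F125A clusters added up to 20 or more, 13.3% held a WT and 7.06% an F125A run.

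The following were added after seeing the data. Within 2 Mb of the outermost gene lay 17.8% of WT and 20.6% of F125A runs, and within 10 Mb 38.6% and 46.3%. By cluster, 20.4% and 22.8% in runs lay within 2 Mb, beside 5.13% and 6.24% of all, and 43.0% and 48.5% within 10 Mb, beside 17.2% and 19.2%. Runs of 8 or more clusters lay within 5 Mb in 48.9% and 45.6%, and without genes of 3 or more runs 24.3% of WT runs did.

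Of 54 alternative values, 23 lay within the counting interval or within 1.5 times the main count. Among them were those without overlapping clusters, without the identical stretch, with repeats kept (1214 WT and 571 F125A runs) and without the gene name. No clusters of a list overlapped, and no run held a cluster of the identical stretch. Merging overlapping clusters and leaving out the stretch thus gave the same 1093 WT and 520 F125A runs by construction. Their values are counted among the 23 but tested nothing. Sequence over covered bases was not run. No paired analysis was possible because each group has 1 list, with no columns for its replicates. With no counts of reads, depth limits every statement on a missing cluster.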
